A study of Mus musculus with 8 samples.

Results

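The genes described here encode the peptide adrenomedullin (*Adm*), the receptor that it shares with calcitonin gene-related peptide (CGRP) (*Calcrl*), the accessory proteins of that receptor (*Ramp1*, *Ramp2* and *Ramp3*) and the CGRP receptor component protein (*Crcp*). They are 6 of 54532 gene identifiers, taken by symbol, and the family was chosen by the fall of *Ramp2* with TGF-β1 in an earlier test of the same cultures, so the values of *Ramp2* are given as a description with no test. Bulk RNA-seq had been performed on wild-type primary pericytes from mouse brain, the mural cells that wrap capillaries. There were 4 cultures with TGF-β1, a secreted cytokine added at 5 μg mL-1 for 48 h, and 4 with vehicle for the same time. The cells had been passaged repeatedly, at the end in a pericyte medium with growth factors and serum, so they are a culture model without vessels or blood flow. The study's methods describe adult male mice in general, without saying which animals gave the brain cultures.

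Adrenomedullin is a secreted vasodilator peptide that acts on endothelial and mural cells, and its gene is a well-known target of hypoxia signalling. Its receptor is built from 2 kinds of subunit. The product of *Calcrl* is a G protein-coupled receptor that reaches the cell surface only together with a receptor activity-modifying protein (RAMP), and the RAMP sets the ligand: with RAMP1 the receptor binds CGRP, and with RAMP2 or RAMP3 it binds adrenomedullin. The receptor couples mainly to Gs, adenylyl cyclase and cyclic AMP, which relaxes contractile vascular cells. *Crcp* encodes a small intracellular protein that was described as a coupling factor of the CGRP receptor and is also a subunit of RNA polymerase III.

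The counts summed to between 45255235 and 47651397 per culture and did not differ between the groups beyond the spread of the cultures (exact permutation test, two-sided, p = 0.857). Levels are given as CPM, counts scaled to a common library total after TMM correction for composition (counts per 1e+06), on which 3 counts correspond to between 0.0631 and 0.0658 CPM. Taken as deposited, the counts of libraries of a group differed by more than sampling noise alone (chi-square per degree of freedom from 2.25 to 3.93). With each count halved, as would apply if both mates of a pair were counted, the values were 1.14 to 2.10. The lowest, for vehicle replicates 3 and 4, lay close to sampling noise. Each library was counted as 1 replicate. The study's methods speak of independent isolates, but the labels tie no culture to an animal, so p-values measure the spread between these cultures. Of 15 pericyte markers 12 could be tested, with 5 higher and 4 lower with TGF-β1. *Pdgfrb* and *Cspg4* were abundant (202 and 82.9 CPM with vehicle) and among the higher ones, with log2 fold changes of 0.53 and 1.03. The 4 lower were *Rgs5* (-2.02, from 8.62 to 2.13 CPM), *Atp13a5* (-1.27), *Anpep* (-0.43) and *Zic1* (-0.16). *Des* had only 26 to 36 counts with vehicle and 25 to 32 with TGF-β1. *Kcnj8*, *Abcc9* and *Vtn*, which mark pericytes in brain tissue, had under 10 counts in every culture.

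In the TGF-β1 cultures the RNA of the ligand and of both parts of its main receptor was lower. The proteins of these 6 genes were not measured. *Calcrl* fell to 0.417 of its vehicle level and *Adm* to 0.531, while *Ramp2*, the gene behind the choice of the family, was at 0.282. *Ramp1* and *Ramp3* were near the limit of what these libraries resolve and *Crcp* was not called. All 6 genes passed the expression filter. By edgeR's quasi-likelihood method, with p-values adjusted after Benjamini and Hochberg over 22544 genes, 2 of the 5 genes other than *Ramp2* had an adjusted p under 0.05, both lower, and 3 were not called. Over all genes tested, 41.3% were called, 20.9% higher and 20.3% lower. The median log2 fold change was -0.63 over the 6 genes and -0.01 over all genes tested. Since *Ramp2* chose the family, nothing is read from these counts.

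**Figure D1:**
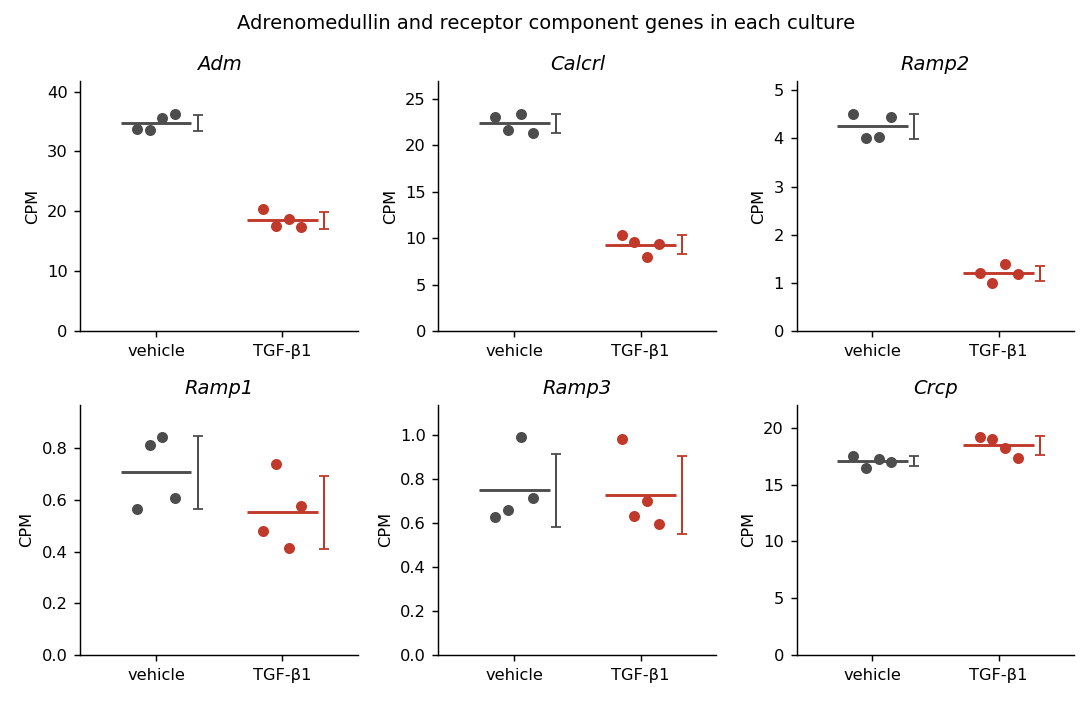
CPM of each gene in each culture (points), with the group mean (line) and its SD (bar, n = 4), for vehicle in grey and TGF-β1 in red; each axis starts at 0. *Adm*, *Calcrl* and *Ramp2* do not overlap between the groups, while *Ramp1*, *Ramp3* and *Crcp* do.

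*Adm* (ENSMUSG00000030790) lies on the plus strand of chromosome 7 of GRCm38, from 110627661 to 110629820, with 4 merged exons. It was at 33.7, 33.6, 35.6 and 36.3 CPM in vehicle replicates 1 to 4, and at 20.4, 17.5, 18.7 and 17.3 CPM in TGF-β1 replicates 5 to 8. Every TGF-β1 culture was therefore below every vehicle culture, with a gap between the groups far wider than the range within either of them. The vehicle mean of 34.8 ± 1.36 CPM compared with 18.5 ± 1.40 CPM in the treated cultures (SD, n = 4 each). Its log2 fold change was -0.91 (standard error 0.05, 95% interval -1.01 to -0.81, adjusted p = 4.91e-20 from the edgeR test). With 1532 to 1692 counts, *Adm* was the most abundant of the 6 genes in the vehicle cultures. With TGF-β1 it had 805 to 934 counts and *Crcp* 817 to 878.

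*Calcrl* (ENSMUSG00000059588), the receptor itself, lies on the minus strand of chromosome 2 from 84330626 to 84425411, with 16 merged exons. It was at 23.1, 21.6, 23.4 and 21.4 CPM in vehicle replicates 1 to 4 and at 10.3, 9.65, 7.94 and 9.36 CPM in TGF-β1 replicates 5 to 8. The groups did not overlap here either, and TGF-β1 replicate 7 was the lowest culture. The mean went from 22.4 ± 1.02 CPM (SD, n = 4) to 9.31 ± 0.994 CPM (SD, n = 4), a log2 fold change of -1.26 (standard error 0.06, 95% interval -1.39 to -1.14, edgeR adjusted p = 4.99e-21). Only 345 of the 22544 genes tested had a lower log2 fold change than *Calcrl*, and 804 had a lower one than *Adm*. A gap of this kind, with every TGF-β1 culture below every vehicle culture, was seen in 18.8% of the genes tested.

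The RNA of receptor and ligand did not fall by the same factor. The log2 ratio of *Calcrl* to *Adm* counts, which does not depend on the scaling between libraries, was -0.64 ± 0.09 (SD, n = 4) with vehicle and -0.99 ± 0.17 (SD, n = 4) with TGF-β1, and it was lower in each of the TGF-β1 cultures than in any vehicle culture. This gave the smallest p that 4 cultures against 4 allow (exact permutation test, two-sided, p = 0.0286, and 0.0286 adjusted over the 2 ratios tested). Both ratios were outside the planned tests and were taken between genes whose log2 fold changes in the fit already differed.

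Windows at the gene start were found for 4 of the 6 genes. The start regions of the 2 that passed the test, *Adm* and *Calcrl*, are shown. They are taken from RefSeq on GRCm38.p6, from 250 bases before to 50 bases after the annotated start, chr7:110627407-110627706 on the plus strand for *Adm* and chr2:84425217-84425516 on the minus strand for *Calcrl*. Capitals mark matches, on either strand, to the hypoxia response core ACGTG, the Smad box core CAGAC, the cyclic AMP response element TGACGTCA, its shorter form TGACG, the GC box GGGCGG and the TATA core TATAA.
Adm: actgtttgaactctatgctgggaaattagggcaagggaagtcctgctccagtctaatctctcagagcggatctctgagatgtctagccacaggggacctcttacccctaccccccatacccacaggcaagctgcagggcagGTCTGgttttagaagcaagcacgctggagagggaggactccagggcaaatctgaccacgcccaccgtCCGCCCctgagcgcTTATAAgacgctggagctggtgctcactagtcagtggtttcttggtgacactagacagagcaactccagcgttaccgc
Calcrl: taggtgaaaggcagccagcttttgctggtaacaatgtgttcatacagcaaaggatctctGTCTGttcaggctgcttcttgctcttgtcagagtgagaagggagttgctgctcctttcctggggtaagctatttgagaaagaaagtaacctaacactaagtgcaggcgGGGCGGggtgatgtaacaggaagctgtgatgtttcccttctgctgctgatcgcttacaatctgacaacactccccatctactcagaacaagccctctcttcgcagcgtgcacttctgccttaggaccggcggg

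Each of these windows held 1 match to CAGAC, which begins at position -109 in *Adm* and at -191 in *Calcrl* when the annotated start is +1, and CAGAC occurs in 49.6% of the 32851 promoter windows of this table. Each also held 1 GC box, at -42 in *Adm* and at -83 in *Calcrl*, a motif found in 35.7% of the windows. The *Adm* window had overlapping TATAA matches on the opposite strands at -28 and -27, and 24.9% of all windows hold a TATAA. Neither window held ACGTG (19.6% of all windows), TGACG (20.8%) or TGACGTCA (1.79%). Of the members that were not called, *Ramp1* held 1 CAGAC in its window, at -104, and no GC box. The *Ramp3* window held 3 GC boxes and no CAGAC. These are matches of letters and not sites of binding. The windows reach only 250 bases before the start, so matches farther upstream were not sought. On its minus strand the *Calcrl* gene as placed above begins at 84425411, inside its window and upstream of the RefSeq start. The *Calcrl* positions therefore hold for the RefSeq start only.

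*Ramp2* (ENSMUSG00000001240), whose product carries the receptor to the surface as an adrenomedullin receptor, lies on the plus strand of chromosome 11 from 101246028 to 101259546. It was at 4.51, 4.01, 4.02 and 4.44 CPM in vehicle replicates 1 to 4, from 183 to 208 counts. In TGF-β1 replicates 5 to 8 it was at 1.20, 1.00, 1.40 and 1.19 CPM, from 46 to 64 counts. The lowest vehicle culture thus lay well above the highest TGF-β1 culture. The means were 4.25 ± 0.267 and 1.20 ± 0.161 CPM (SD, n = 4 each) and the log2 fold change was -1.82. Annotated exons of *Ramp2* overlap those of *Vps25* on the same strand over 33.4% of their length. The counts there may have been split or dropped by the counting, whose rule for shared reads was not given in the sources used here. Few counts were assigned to *Vps25*, and it was not called (1.18 CPM with vehicle and 0.975 CPM with TGF-β1, edgeR adjusted p = 0.338). The same rule acts on its counts over the 1103 shared bases, so its expression cannot be read from them. The exons of the main *Ramp2* transcripts, 1300 bases in the GENCODE basic set, do not overlap another gene.

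*Ramp1* (ENSMUSG00000034353, chromosome 1, 91179822 to 91225196, plus strand), the RAMP of the CGRP receptor, was barely expressed. Its counts were 26, 37, 40 and 28 in vehicle replicates 1 to 4 and 22, 34, 19 and 27 in TGF-β1 replicates 5 to 8, so the groups overlapped. Means of 0.706 ± 0.141 and 0.552 ± 0.142 CPM (SD, n = 4 each) gave a log2 fold change of -0.35 (standard error 0.27, edgeR adjusted p = 0.318), and the 95% interval from -0.89 to 0.19 holds both no change and a large fall.

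*Ramp3* (ENSMUSG00000041046, chromosome 11, 6658521 to 6677475, plus strand), the other RAMP that makes an adrenomedullin receptor, was as low. Its counts were 29, 30, 47 and 33 with vehicle and 45, 29, 32 and 28 with TGF-β1, in the order of the replicates. The highest culture of each group stood above the other 3, and the groups overlapped over nearly their whole range. At 0.748 ± 0.165 and 0.727 ± 0.175 CPM (SD, n = 4 each), the log2 fold change was -0.04 (standard error 0.25, 95% interval -0.54 to 0.46, edgeR adjusted p = 0.913). A change of *Ramp3* was thus not detectable at this depth, and its sign depended on single cultures. Opposite-strand exons of *Gm11978*, a pseudogene, cover 7.32% of its exons.

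Because the RAMPs compete for the same receptor, their make-up was compared per length. Relative to all annotated exons, *Ramp2* made up 62.6% ± 5.60 (SD, n = 4) of the summed RAMP CPM per kb with vehicle and 34.0% ± 5.00 (SD, n = 4) with TGF-β1. *Ramp3* made up 26.1% ± 4.30 and 48.6% ± 6.19, and *Ramp1* 11.3% ± 2.15 and 17.4% ± 5.57. The lengths matter, since the exons of *Ramp2* span 3.30 kb in the full annotation and 1.30 kb in the basic transcripts. With basic lengths the share of *Ramp2* was 79.5% ± 3.96 with vehicle and 54.4% ± 5.48 with TGF-β1 (SD, n = 4 each). The share of *Ramp2* was thus lower in every TGF-β1 culture than in any vehicle culture with either length, but which RAMP led in the TGF-β1 cultures was not settled, being *Ramp3* with the full and *Ramp2* with the basic lengths. Without regard to length, the RAMP genes together had 264 ± 11.5 counts per culture with vehicle and 114 ± 5.74 with TGF-β1 (SD, n = 4 each). These shares rest on the fall of *Ramp2* and were not tested.

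**Figure D2:**
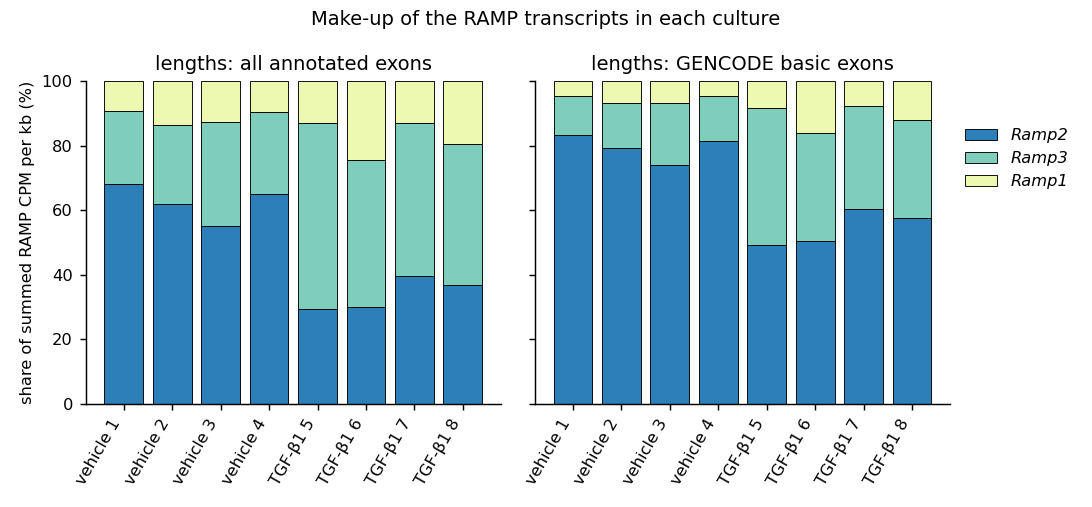
Share of *Ramp2*, *Ramp3* and *Ramp1* in the summed RAMP CPM per kb (%) in each culture, with lengths from all annotated exons (left) or from the basic transcripts (right). *Ramp2* held 55.0% to 68.0% in the vehicle cultures and 29.5% to 39.7% in the TGF-β1 cultures on the left.

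Set against the receptor on the same per-length scale, the *Ramp2* level was 0.281 ± 0.0227 of that of *Calcrl* with vehicle and 0.194 ± 0.0465 with TGF-β1 (SD, n = 4 each) over all annotated exons. With basic lengths the ratio was 0.714 ± 0.0576 and 0.491 ± 0.118. In the TGF-β1 cultures this ratio ranged from 0.154 to 0.260 over all exons, the highest of them above the lowest vehicle value of 0.254, so the groups overlapped. In levels per kb the order of the genes with vehicle was *Adm* (21.5 ± 0.839 CPM per kb), *Crcp* (10.8 ± 0.281), *Calcrl* (4.58 ± 0.209), *Ramp2* (1.29 ± 0.0810), *Ramp3* (0.542 ± 0.119) and *Ramp1* (0.234 ± 0.0466) (SD, n = 4 each). With TGF-β1 *Adm* (11.4 ± 0.867) and *Crcp* (11.6 ± 0.518) were within their spread of each other, followed by *Calcrl* (1.91 ± 0.204). *Ramp3* (0.527 ± 0.127) and *Ramp2* (0.363 ± 0.0488) changed places there, and with basic lengths they did not (0.590 ± 0.142 for *Ramp3* and 0.921 ± 0.124 for *Ramp2*).

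*Crcp* (ENSMUSG00000025532) lies on chromosome 5 from 130029290 to 130060789, plus strand. It was at 17.5, 16.5, 17.3 and 17.0 CPM in vehicle replicates 1 to 4 and at 19.2, 19.0, 18.2 and 17.4 CPM in TGF-β1 replicates 5 to 8. TGF-β1 replicate 8 lay within the vehicle range and the other TGF-β1 cultures above it. The mean was 17.1 ± 0.446 CPM with vehicle and 18.5 ± 0.821 CPM with TGF-β1 (SD, n = 4 each), a log2 fold change of 0.11 (standard error 0.05, 95% interval 0.01 to 0.22) that was not called (edgeR adjusted p = 0.0863). Without TGF-β1 replicate 8 it was called (0.15, edgeR adjusted p = 0.0346). Since *Crcp* also encodes a subunit of RNA polymerase III, the other subunits were counted beside it. All 12 were tested, with 4 higher and 1 lower. This and the other list counts stand beside 20.9% called higher and 20.3% called lower over all genes tested. The changes were small, from a rise of *Polr3d* by 0.29 to a fall of *Polr3gl* by 0.21 on the log2 scale.

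**Figure D3:**
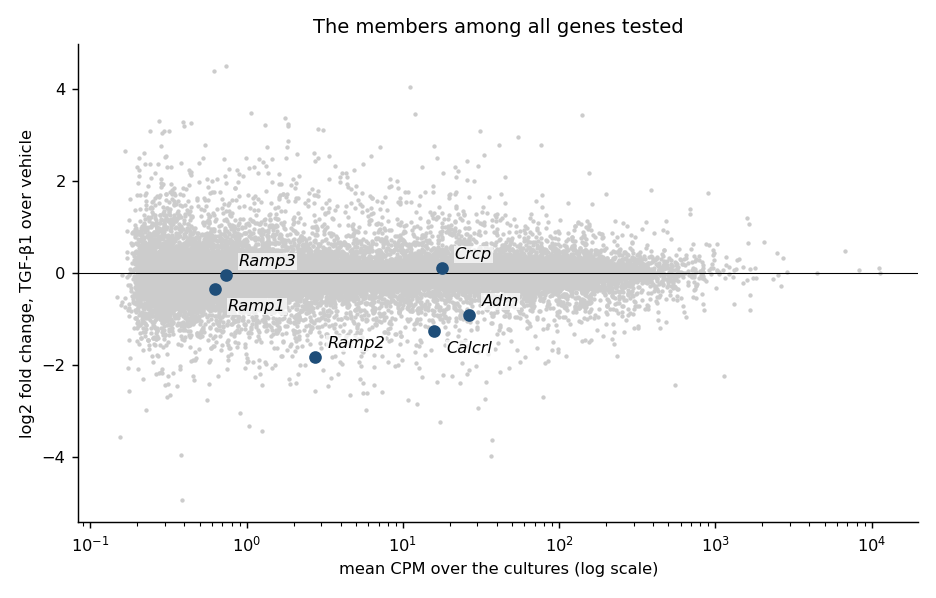
Log2 fold change of each gene tested (grey) against its mean CPM over the 8 cultures (log axis), with the 6 genes described here in blue. *Adm*, *Calcrl* and *Ramp2* lie lowest of the 6 at -0.91, -1.26 and -1.82, followed by *Ramp1* at -0.35, *Ramp3* at -0.04 and *Crcp* at 0.11.

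The other peptides of the calcitonin family were scarcely detected. Of *Adm2*, *Calca*, *Calcb* and *Iapp*, only *Adm2* (intermedin, which acts on the same receptors) and *Calca* (calcitonin and CGRP) passed the expression filter. *Adm2* had 4 to 6 counts in the vehicle cultures and 19 to 24 in the TGF-β1 cultures. It passed the filter only through the TGF-β1 cultures, where it is high, so its call, the only one in this list, is not used as support. The call was not made with a minimum of 10 counts in every culture or with halved counts, and the gene is named here after its values were seen. Its level stayed at 0.455 ± 0.0524 CPM (SD, n = 4) with TGF-β1 against 18.5 CPM for *Adm*. *Calca* was at 4 to 14 counts with vehicle and at 12 to 20 with TGF-β1 and was not called (edgeR adjusted p = 0.0879).

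Among other receptors that bind adrenomedullin or pair with RAMPs, 8 of 12 were tested, with 1 higher and 2 lower. *Ackr3*, an atypical chemokine receptor that also takes up adrenomedullin, was at 29.2 ± 1.53 CPM with vehicle and 16.7 ± 1.95 CPM with TGF-β1 (SD, n = 4 each), with every TGF-β1 culture below every vehicle culture. It fell by 0.80 on the log2 scale (standard error 0.06, edgeR adjusted p = 5.13e-13). The log2 ratio of *Calcrl* to *Ackr3* counts, the other unplanned ratio, was lower by 0.46 with TGF-β1. Its p was 0.0286 (exact permutation test, two-sided), and 0.0286 adjusted over both ratios. *Calcrl* RNA thus fell more than *Ackr3* RNA. *Vipr2*, a receptor of vasoactive intestinal peptide, fell by 1.31 on the log2 scale (standard error 0.21). It had 60 to 86 counts with vehicle and 25 to 35 with TGF-β1. *Gper1*, an oestrogen-binding receptor linked to RAMP3, rose by 0.65 on the log2 scale (standard error 0.16). Its counts were also low, 53 to 67 with vehicle and 79 to 110 with TGF-β1. *Calcr*, the calcitonin receptor, had between 8 and 19 counts in every culture and was not called (edgeR adjusted p = 0.479).

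Of 7 genes for processing and clearance of the peptide, 2 were higher and 3 were lower. *Furin*, a protease of precursor cleavage, rose by 0.35 on the log2 scale. *Pam*, the enzyme that amidates adrenomedullin, was at 209 ± 6.21 and 203 ± 7.72 CPM (SD, n = 4 each) and was not called (edgeR adjusted p = 0.197). *Mme* (neprilysin), which degrades the peptide, fell by 0.70 and *Ece1*, a protease of receptor recycling, by 0.33 on the log2 scale. The second call among the higher genes, *Dpp4*, rested on 4 to 14 counts with vehicle and 8 to 26 with TGF-β1. It was lost with DESeq2 and with halved counts, among other alternatives.

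Desensitization and trafficking genes moved in both directions, with 4 higher and 5 lower of 11 tested. *Grk3*, a kinase that uncouples G protein-coupled receptors, fell most, from 35.9 ± 1.20 to 17.6 ± 1.40 CPM (SD, n = 4 each), a log2 fold change of -1.03 (standard error 0.05, edgeR adjusted p = 8.69e-22). *Arrb1* (β-arrestin 1) fell by 0.37 and *Slc9a3r1*, a scaffold that binds RAMP3, by 0.19. The rises were small, at 0.19 for *Grk5*, 0.12 for *Rab11a* and 0.10 for *Nsf* on the log2 scale.

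Downstream of the receptor, 35 of 36 genes of Gs and cyclic AMP signalling were tested, with 11 higher, 12 lower and 12 not called. Adenylyl cyclases moved in both directions. *Adcy8* went from 14.3 ± 0.365 to 4.17 ± 0.603 CPM and *Adcy5* from 9.03 ± 0.336 to 4.98 ± 0.475, while *Adcy7* went from 6.21 ± 0.40 to 12.9 ± 0.620 and *Adcy1* from 11.1 ± 0.754 to 18.3 ± 0.916 (SD, n = 4 each). All 4 were called. *Pde3a*, a phosphodiesterase that breaks down cyclic AMP, showed the largest change of the list, a log2 fold change of -1.96 (standard error 0.06, edgeR adjusted p = 2.25e-29). *Prkar1b*, a regulatory subunit of protein kinase A, rose by 0.90. *Gnas*, the Gs subunit that couples the receptor, was at 30.5 ± 3.89 and 31.7 ± 4.30 CPM (SD, n = 4 each) and was not called (edgeR adjusted p = 0.80).

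**Figure D4:**
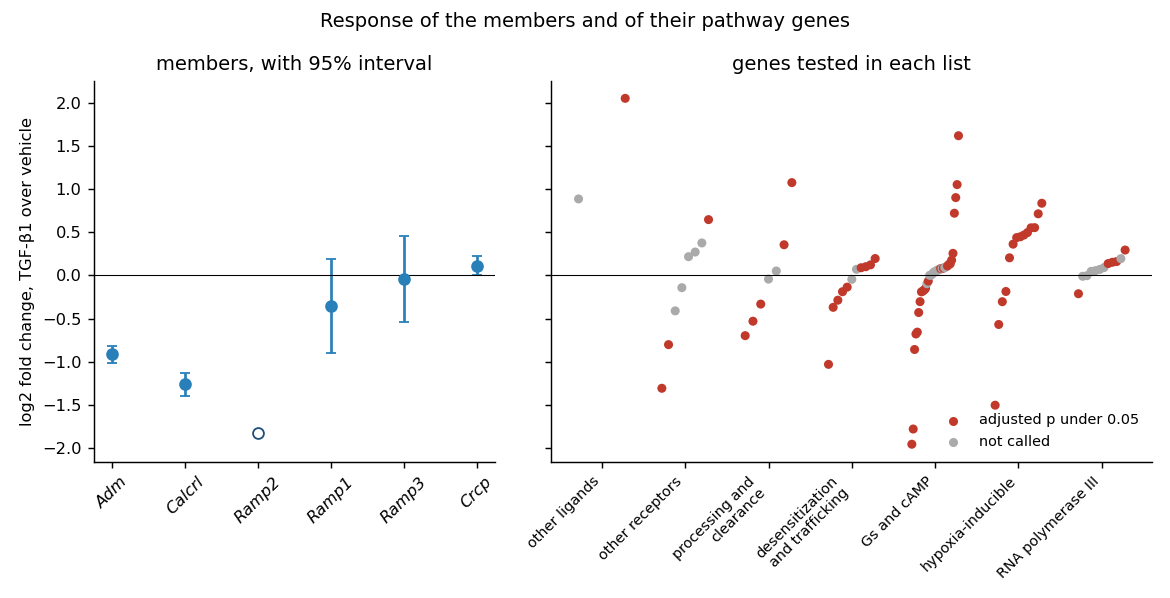
Log2 fold change of TGF-β1 over vehicle for the 6 genes, with the 95% interval of the fit (left, *Ramp2* open and without an interval because it chose the family), and for each gene tested in the 7 pathway lists (right, red where the adjusted p was under 0.05). Of the 14 hypoxia-inducible genes, 10 lie above 0 and 4 below, and *Adm* lies at -0.91.

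*Adm* was also set beside 14 other hypoxia-inducible genes, because the same transcription factors induce it. All 14 were called, 10 higher and 4 lower, with a median log2 fold change of 0.44. Over all genes tested, 20.9% were called higher and 20.3% lower. The list was chosen with earlier results of these data known and was not tested as a set. *Vegfa* rose by 0.83, *Bnip3* by 0.71 and *Slc2a1* by 0.55 on the log2 scale, in the opposite direction to *Adm*. *Ndrg1* fell from 135.6 ± 1.53 to 47.8 ± 3.28 CPM (SD, n = 4 each), *Car9* by 0.57 and *Ddit4* by 0.31 on the log2 scale. The log2 ratio of *Adm* to *Vegfa* counts was -1.57 ± 0.0829 with vehicle and -3.32 ± 0.141 with TGF-β1 (SD, n = 4 each), a difference of -1.75. Since the genes moved in opposite directions in every culture, the ratio had to separate, and no p is given for it.

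*Calcrl* and *Ramp2* are strongly expressed in endothelium, so endothelial transcripts were measured in the same libraries. The summed level of 16 endothelial markers was 482 to 493 CPM in the vehicle cultures and 484 to 509 CPM in the TGF-β1 cultures, and the groups overlapped. Most of it was *Cdh5* (375 CPM with vehicle and 367 CPM with TGF-β1), followed by *Flt1* and *Kdr*, so the sum says little of the other markers. *Pecam1* had 36 to 75 counts with vehicle and 44 to 57 with TGF-β1, while *Tie1*, *Erg* and *Slco1a4* had under 10 counts in every culture. *Cldn5* and *Sox18* had 0 to 10 counts and *Emcn* 4 to 14. Of the 10 markers tested, 4 were higher and 1, *Tek*, was lower by 0.45 on the log2 scale, a call that was lost without vehicle replicate 1. The 4 rises were 1.94 for *Robo4*, 1.27 for *Vwf*, 0.95 for *Mfsd2a* and 0.28 for *Flt1* on the log2 scale. *Robo4* had 4 to 10 counts with vehicle and 18 to 29 with TGF-β1, and *Mfsd2a* had 14 to 22 and 18 to 49. Of 5 lymphatic endothelial markers, 4 were tested and 2 were higher, of which *Pdpn* rose by 0.25. In the other marker lists, 2 smooth muscle genes were higher and 2 lower of 7 tested, 2 fibroblast and meningeal genes higher and 2 lower of 6, and 1 macrophage and microglia gene higher of 7. For astrocytes 2 were higher and 1 lower of 5, and for the oligodendrocyte lineage 1 was higher and 1 lower of 4. The fibroblast and meningeal sum went from between 1930 and 2029 CPM to between 2865 and 3004 CPM, mostly through *Col1a1*. The pericyte sum went from 777 to 801 up to 939 to 975 CPM, the lymphatic endothelial sum from 250.5 to 268.1 up to 303 to 314 CPM, the smooth muscle sum from 850 to 924 down to 795 to 831 CPM, and the astrocyte sum from 243 to 256 down to 223 to 235 CPM. These 4 sums moved mostly through *Pdgfrb* and *Cspg4* for pericytes, *Pdpn* for lymphatic endothelium, *Smtn* for smooth muscle and *Slc1a2* for astrocytes. Mean *Smtn* went from 125 CPM with vehicle to 61.6 CPM with TGF-β1, and mean *Slc1a2* from 38.5 to 16.3 CPM. *Acta2*, most of the smooth muscle sum, was not called. The part of these shifts in the results was not tested. In bulk RNA, fewer cells of a type and less RNA per cell cannot be told apart.

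The 5 genes whose centred log2 CPM lay closest to that of *Ramp2* over the 8 cultures, among 16494 genes with a mean of at least 1 CPM, were *Mrvi1*, *Pou2f3*, *Angpt2*, *C230034O21Rik* and *Omd*. Their root mean square differences from *Ramp2* were 0.120 to 0.128 on the log2 scale, with Pearson's r of 0.991 to 0.995 over the 8 cultures, which is set mostly by the step between the groups. *Angpt2* was the most abundant of them, at 89.2 ± 3.03 CPM with vehicle and 23.2 ± 1.45 CPM with TGF-β1 (SD, n = 4 each). No other member was among the 5.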

How the data were processed

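According to the study's methods and the submitters' processing notes, reads were aligned to mm10 with STAR 2.7.5c in its 2-pass mode, PCR duplicates were removed with SAMtools 1.15 and reads were counted per gene with featureCounts 2.0.3. The authors deposited raw counts, without normalization, as 1 file per culture. Annotation release, strand setting and the treatment of shared reads were not given in the sources used here. From 68.5% to 70.2% of the counts between 1 and 20 were even, so both mates of a pair may have been counted.

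Identifiers were paired with symbols (54409 of 54532) and with GENCODE M21 exons on GRCm38 (54495). The 8 cultures were compared with edgeR 4.0.16 in R 4.3.3 (filterByExpr, TMM, robust dispersion, quasi-likelihood test), with p-values adjusted (Benjamini-Hochberg) across 22544 genes and called under 0.05. Standard errors were the log2 fold change over the square root of F. Single values were compared with exact permutation tests over the 70 splits. The code was tested on simulated data. The members and lists were chosen with earlier results of these data known. All 6 members are named, and from each pathway list up to 3 rises and 3 falls with the largest change, among called genes of at least 1 CPM whose groups did not overlap. Other genes were named for their role or after their values were seen. The alternatives were DESeq2 1.42.0 without a filter, other scalings, filters and lengths, halved counts, and each culture left out. Motifs were searched in RefSeq promoter windows, which were found for 4 of the 6 genes. One gene of the pathway lists that this rule names is not reported here by name.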

Additional observations from a re-analysis of the deposited data

Results flagged for a closer look

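In groups of 4 cultures, a value was singled out when its gap to the nearest of the others exceeded Dixon's critical share of the range of the group. Over 90 groups, 2 were singled out, where chance at 1 in 20 gives 4.5, and none concerned the 6 genes described here. *Vegfa* was at 107.2 CPM in vehicle replicate 2 against 102.2 CPM in the nearest culture. The summed astrocyte marker level was 222.9 CPM in TGF-β1 replicate 5 against 233.1 CPM in the nearest culture.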

How the results depend on the processing

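The calls of *Adm* and *Calcrl* and the directions of *Adm*, *Calcrl* and *Ramp2* held in all 15 alternatives fitted, with log2 fold changes from -0.97 to -0.87, from -1.32 to -1.20 and from -1.91 to -1.75. *Ramp1* stayed uncalled, from -0.53 to -0.24. *Ramp3* ranged from -0.22 to 0.13 with each culture left out and turned positive, uncalled, without vehicle replicate 3 (0.13), TGF-β1 replicate 6 (0.02) and TGF-β1 replicate 8 (0.05). *Crcp* ranged from 0.0925 to 0.15 and was called without TGF-β1 replicate 8 (0.15), so that the number of the 6 genes called higher went from 0 to 1. The *Ramp2* share of 62.6% with vehicle moved to 74.5% without division by length and, in an alternative chosen after seeing the data, to 79.5% with basic exon lengths. The share of 34.0% with TGF-β1 moved to 48.3% and 54.4%. The number of genes called ranged from 8559 to 9311. Those higher ranged from 4265 to 4798 and those lower from 4093 to 4828. Of 450 list counts over the alternatives, 415 stayed within 1.5 times the main count and 35 did not, which then came to 0 to 3 genes. All 435 values of the named pathway genes kept their direction and call. No paired analysis was possible because the labels number the vehicle cultures 1 to 4 and the TGF-β1 cultures 5 to 8, although the study's methods describe isolates that received both. *Ramp1* and *Ramp3*, with 19 to 47 counts per culture, limit what can be said of smaller changes.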
